A study of Drosophila melanogaster with 2 samples.

Results

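The genes described are those that encode translation initiation factors (symbols starting with eIF) and translation elongation factors (symbols starting with eEF) in Drosophila melanogaster. The name pattern found 52 of 13968 protein-coding genes, and the factor studied was looked for at their promoters. The data came from 1 group of 2 biological replicates of whole embryos aged 0 to 16 hours. These embryos carried a transgene that joins CG31441, a predicted zinc-finger protein, to enhanced green fluorescent protein (eGFP), and sonicated chromatin was precipitated with an antibody against GFP and sequenced (ChIP-seq). There was no group without the transgene, control libraries were not analysed here, the promoter that drives the transgene is not given in the labels, and embryos of all these ages and all their tissues were mixed. A gene was counted as carrying a promoter summit when the summit of a peak, its highest point, lay within 500 bp of any annotated transcription start site (TSS). The peaks were those of the conservative list of the whole series, which held 6501 peaks that passed a limit on the irreproducible discovery rate (IDR), which is low where a peak ranks alike in the lists compared. Signal below is the value the authors' peak caller gave each peak. The scale of this value is unknown and may change from list to list, as is the read depth behind it, so it serves to rank peaks within 1 list.

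Initiation factors bring the small ribosomal subunit, the initiator tRNA and the mRNA together and place the ribosome on the start codon. Elongation factors then deliver aminoacyl-tRNAs and move the ribosome along the message codon by codon. These factors are made in nearly every cell, and several of them exist in additional copies, some of which are used mainly in the germ line.

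Sequences at 5 summits are shown because they cover the range of what was found. They include a strong promoter summit with a word known from fly promoters, and a promoter where the replicates' thresholded lists marked different places. Also shown are a promoter summit of middle signal, a summit in an intron and the strongest peak of these genes. That peak is missing from the thresholded lists. Each sequence runs for 50 bases on either side of the summit on assembly dm6, as given by RefSeq, in the 5' to 3' direction of the gene. Capitals mark the DNA replication-related element (DRE, TATCGATA) or the TATA box word (TATAAA) on either strand, where present. The first is at eEF1gamma (chr3R:29220086-29220186, plus strand). The next lies 275 bp upstream of the TSS of eIF1 (chr3L:3223016-3223116, plus strand) and also holds a DRE. The eIF2D summit (chr3R:29151826-29151926, minus strand), the eIF3h summit in an intron of that gene (chr2L:5052467-5052567, minus strand) and the eIF4EHP summit (chr3R:24109135-24109235, minus strand) hold no DRE, and the last holds TATA box words on both strands.
eEF1gamma: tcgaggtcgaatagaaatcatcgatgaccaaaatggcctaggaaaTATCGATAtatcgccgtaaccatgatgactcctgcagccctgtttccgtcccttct
eIF1: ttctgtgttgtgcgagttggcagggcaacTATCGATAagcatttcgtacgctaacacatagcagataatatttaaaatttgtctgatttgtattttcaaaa
eIF2D: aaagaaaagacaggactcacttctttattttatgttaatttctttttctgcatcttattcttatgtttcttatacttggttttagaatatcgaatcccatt
eIF3h: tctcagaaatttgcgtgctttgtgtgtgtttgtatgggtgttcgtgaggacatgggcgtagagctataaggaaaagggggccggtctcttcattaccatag
eIF4EHP: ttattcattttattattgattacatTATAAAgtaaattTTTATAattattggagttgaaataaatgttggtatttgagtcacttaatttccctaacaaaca

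CG31441-eGFP was found at the promoters of 12 of the 52 eIF and eEF genes (23.1%), against 18.2% of all protein-coding genes. The 12 were eIF6, eIF3c, eEF1gamma, eIF1, eIF3h, eIF3m, eIF5B, eEF2, eIF2D, eEF1alpha1, eEF5 and eIF2Bbeta, in order of signal. No test was made of the difference between these shares, because the genes were proposed with results of these data known. Within 250 bp of a TSS, 11 of the 52 genes had a summit (21.2%, against 14.0% of all genes), and within 1000 bp the same 12 did (against 21.3%). The less strict list of the series held a summit at 14 genes (26.9%, against 21.0%).

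The replicates' own thresholded lists gave counts of the same order. Replicate 1 had a summit at 12 of the 52 genes (23.1%, against 17.3% of all genes), and replicate 2 at 14 (26.9%, against 18.4%). A conservative summit that lay inside a thresholded peak of both replicates was present at 11 genes (21.2%, against 12.1%). These are the 12 genes above without eIF1. At eIF2Bbeta the replicate peaks had their own summits 184 and 189 bp away, and replicate 2 had no summit within 500 bp of its TSS. In the ranked lists, which hold peaks before the limit on IDR, replicate 1 had a summit at 22 genes (42.3%, against 35.1%) and replicate 2 at 27 (51.9%, against 43.1%). The share was above that of all genes in each of these lists. The lists overlap, since those of the series and those of the replicates draw on the same alignments, so they are not separate evidence. Among genes with 1 TSS, the share in the conservative list was 12.5%, against 13.5% of all such genes.

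**Figure D1:**
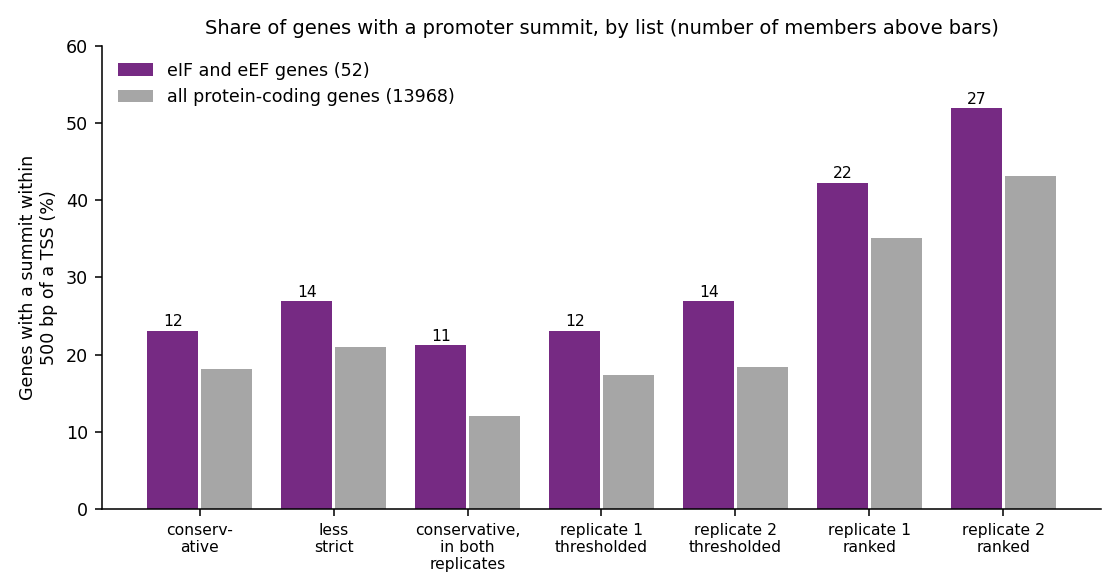
Share of genes with a summit within 500 bp of a TSS (vertical axis, percent) in each peak list, and inside peaks of both replicates, for the 52 eIF and eEF genes (purple) and for all 13968 protein-coding genes (gray). The purple bar stands above the gray bar in all 7 comparisons, by 23.1% against 18.2% in the conservative list, and both are highest in the ranked list of replicate 2. These comparisons overlap, since the lists draw on the same alignments.

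Both genes for the joining of the ribosomal subunits (2 of 2, against 18.2% of all genes) carried a strong or middling promoter summit. eIF6, which keeps the large subunit from joining the small one too early, had the highest signal of all 12 genes, 558.9, rank 126 of the 2541 genes with a promoter summit. Its signal was 302.0 in replicate 1 and 264.2 in replicate 2 (percentiles 96.5 and 98.0 of their thresholded lists). The peak was on 2R from 23850208 to 23850608, with its summit 107 bp upstream of the TSS, in an exon of the noncoding antisense gene asRNA:CR45928. eIF5B, the GTPase that joins the subunits, had a signal of 243.9, near the middle of the promoter summits (percentile 60.5). Replicate 1 gave it 135.9 and replicate 2 gave it 103.2. That summit lay 153 bp upstream of the nearest TSS, in the 5' untranslated region of a longer eIF5B transcript on 3L.

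Among the elongation factors 4 of 8 genes carried a promoter summit, against 18.2% of all genes. eEF1gamma, a subunit of the complex that recharges eEF1alpha with GTP, was the strongest, with 458.5 on 3R from 29219910 to 29220334. Its signal was 259.4 in replicate 1 and 200.4 in replicate 2 (percentiles 92.3 and 92.7). eEF2, the translocase, had 229.5 at a summit 13 bp upstream of the nearest TSS on 2L from 21681948 to 21682329, in the 5' untranslated region of a longer transcript. That summit had 156.2 in replicate 1 and 97.7 in replicate 2. Another eEF2 summit, 167 bp upstream, had 115.2 and lay in no thresholded peak of either replicate, with ranked peaks of 101.4 in replicate 1 and 46.7 in replicate 2.

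The remaining pair of bound elongation genes was weaker. eEF1alpha1, the main carrier of aminoacyl-tRNA to the ribosome, had 191.9, on 2R from 11891904 to 11892183 in an intron of its longer transcripts, 87 bp upstream of another of its 4 TSSs. eEF5, the hypusine-bearing factor also known as eIF5A, had 161.5, on 2R from 24057655 to 24057884 and 42 bp upstream of a TSS. For eEF1alpha1 the replicates gave 87.4 in replicate 1 and 94.9 in replicate 2. For eEF5 they gave 86.0 in replicate 1 and 96.8 in replicate 2. In each case the peak stood low in the thresholded list of replicate 1 (percentiles 14.8 and 13.4) and in the middle of that of replicate 2 (55.7 and 57.3). Of the genes with no conservative summit, eEF1delta had a ranked peak in replicate 1 alone (55.7) and eEFSec, which brings selenocysteine tRNA, in replicate 2 alone (22.3). eEF1beta and eEF1alpha2 had none in either.

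**Figure D2:**
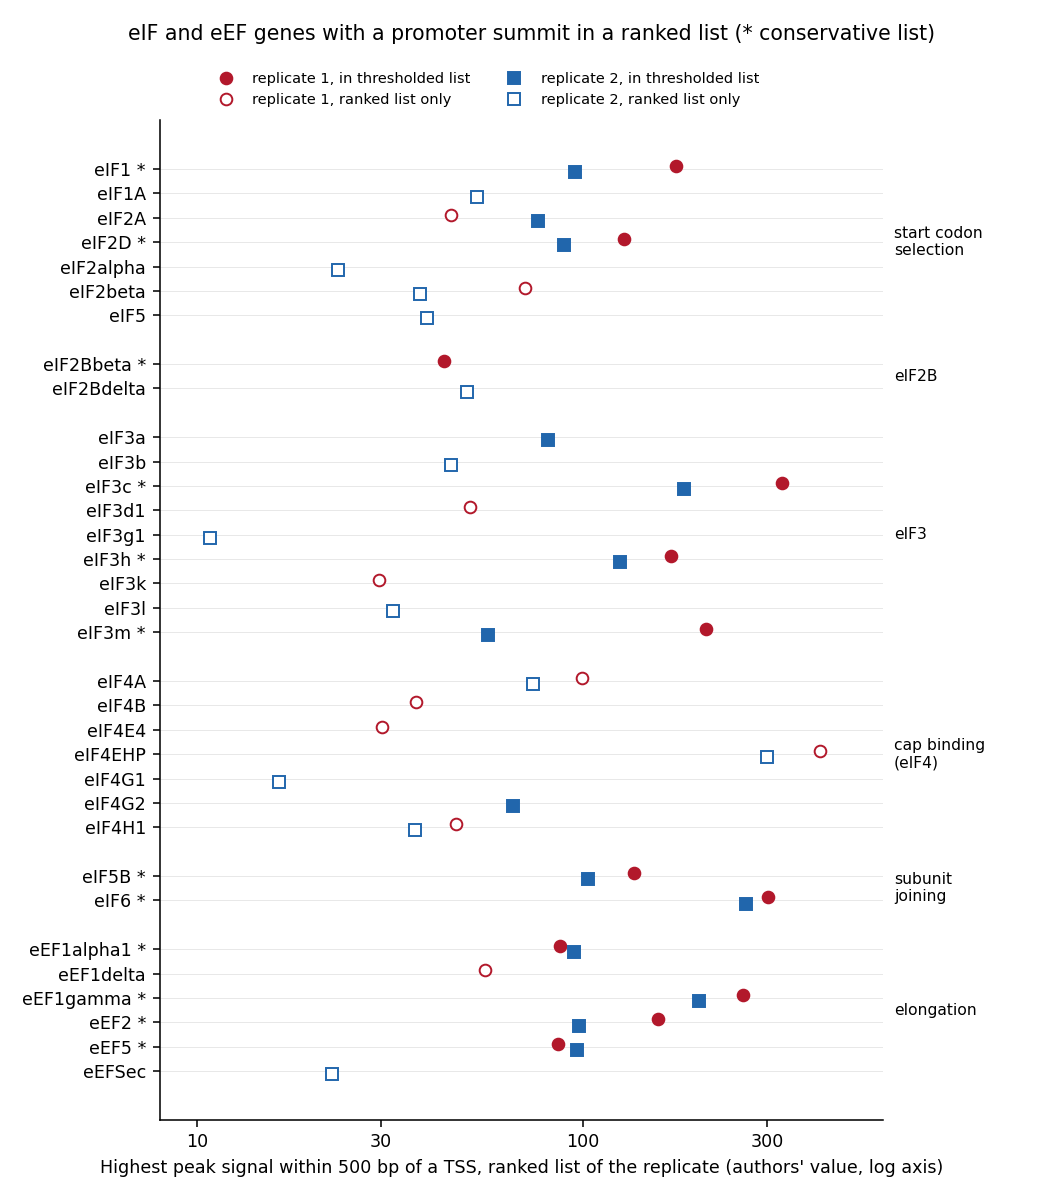
Highest peak signal within 500 bp of a TSS in the ranked list of each replicate (horizontal log axis, authors' value), for the eIF and eEF genes with such a peak in either replicate, grouped by role. Filled marks are peaks that also stand in the thresholded list of that replicate, open marks are in the ranked list alone, and asterisks mark the 12 genes of the conservative list. Marks of eIF4EHP, at 412.4 in replicate 1 and 300.4 in replicate 2, lie farthest to the right and are open.

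Of the genes for start codon selection and the initiator tRNA, eIF1 and eIF2D (2 of 8, against 18.2% of all genes) carried a conservative summit. eIF1, which guards the choice of the start codon, had summits at 275 bp (signal 370.1) and 76 bp (218.1) upstream of its TSS on 3L. The farther summit lay in a peak of 95.2 in replicate 2 and in no peak of replicate 1, even before thresholding. The nearer one lay in a peak of 174.8 in replicate 1, while replicate 2 had a peak of 49.5 there in the ranked list alone. The thresholded lists of the replicates thus marked different positions of the same promoter. Both positions lie within 500 bp of a TSS of RpL28, which encodes a ribosomal protein. eIF2D, which can place tRNA on the ribosome without eIF2, had 223.2 on 3R from 29151751 to 29152021, with 128.1 in replicate 1 and 89.5 in replicate 2. Its summits in the replicates lay 11 and 10 bp from the conservative one.

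The other 6 genes of this role had no conservative summit. eIF1A, the partner of eIF1 on the small subunit, had a summit in the less strict list alone (127.7, at 118 bp), with a ranked peak of 53.1 in replicate 2. eIF2A, which in mammals can bring initiator tRNA apart from eIF2, had 117.6 in the less strict list, 7 bp from a TSS, with 76.5 in the thresholded list of replicate 2 and 45.4 in the ranked list of replicate 1. The 3 subunits of eIF2, the factor that carries the initiator tRNA, were all outside the thresholded lists. eIF2beta had ranked peaks of 70.9 in replicate 1 and 37.8 in replicate 2, eIF2alpha had 1 of 23.3 in replicate 2, and eIF2gamma had none. eIF5, which triggers GTP hydrolysis by eIF2, had a ranked peak of 39.5 in replicate 2 alone.

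For eIF2B, the exchange factor that recharges eIF2 with GTP, 1 of 5 subunit genes met the rule, against 18.2% of all genes. eIF2Bbeta had a summit of 77.3 on X, rank 2516 of 2541, at 484 bp upstream of its TSS and so just inside the 500 bp limit. The nearest conservative summit to a gene just outside the limit lay 1221 bp from a TSS of eIF4G2, with a signal of 154.9. The eIF2Bbeta summit stood inside replicate peaks of 314.5 in replicate 1 and 358.0 in replicate 2, but their own summits lay 184 and 189 bp away from it, and Ugalt, a nucleotide sugar transporter gene, also has a TSS within 500 bp. Within the window of eIF2Bbeta itself, replicate 1 had a thresholded summit of 43.6 at 462 bp and replicate 2 had none. eIF2Bdelta had a ranked peak of 49.9 in replicate 2 alone, and eIF2Balpha, eIF2Bgamma and eIF2Bepsilon had none.

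The eIF3 genes, which encode the large complex that holds the small subunit ready for the mRNA, carried a conservative summit in 3 of 16 cases (18.8%, against 18.2% of all genes). eIF3c had the highest signal of them, 504.1, on 2R from 17665350 to 17665855, with 328.1 in replicate 1 and 182.8 in replicate 2. eIF3h had summits at 263 bp (296.0) and 64 bp (238.5), and these were the only ones of the 16 eIF and eEF summits downstream of the nearest TSS of their own gene. The farther of the pair had 168.8 in replicate 1 and 124.7 in replicate 2, and the nearer had 126.0 in replicate 1 and 93.2 in replicate 2. The nearer lay in a coding exon of eIF3h and the farther in an intron, and both were within 500 bp of a TSS of senju.

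eIF3m had a summit of 273.7 at 35 bp and a weaker one of 94.3 at 234 bp that lay in the 5' untranslated region of the neighbouring gene CG8323. Both lay inside the same replicate peaks, of 208.5 in replicate 1 and 56.9 in replicate 2. That gap was wide for these genes, since the peak stood at percentile 83.6 of the thresholded list of replicate 1 and 12 of that of replicate 2. eIF3a had a thresholded peak of 81.4 in replicate 2 and none in replicate 1. Ranked peaks in 1 replicate alone were present at eIF3d1 (51.0) and eIF3k (29.6) in replicate 1, and eIF3b (45.6), eIF3l (32.3) and eIF3g1 (10.8) in replicate 2. eIF3e, eIF3f1, eIF3i and eIF3j, and the additional copies eIF3d2, eIF3f2 and eIF3g2, had no peak in either replicate.

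None of the 13 genes for cap binding and unwinding carried a conservative summit, against 18.2% of all genes. Even so, eIF4EHP had the strongest peak of any gene described here in the ranked lists. eIF4EHP binds the mRNA cap without recruiting the ribosome and represses translation of specific mRNAs in the fly embryo. Its peak, on 3R from 24108917 to 24109440, had a signal of 717.8 in the ranked list of the series, rank 16 of 34995, with a global IDR of 1e-05. Replicate 1 gave 412.4 (rank 15 of 27371) and replicate 2 gave 300.4 (rank 48 of 31490). The summit lay 225 bp upstream of the TSS, between genes, with a TSS of CG18428 also within 500 bp. The peak passed the limit of 0.01 on global IDR in all 3 ranked lists and is absent from the thresholded lists. The same holds for eIF4A, the helicase that unwinds the mRNA, with 135.7 in the ranked list of the series (global IDR 0.00398), 6 bp upstream of a TSS in its 5' untranslated region.

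Absence from the thresholded lists despite a passing IDR was rare among peaks at large. Of 6627 peaks of the series' ranked list that passed, 126 (1.90%) were absent from the conservative list, among them 5 of the 100 strongest, and the eIF4EHP peak was the strongest of the 126. The readme deposited with the samples names 1 more input for each thresholded list without stating its role, and its part in these absences was not tested. For eIF4A the replicates had ranked peaks at different places, 99.6 in replicate 1 at 309 bp, also near chic, and 74.2 in replicate 2 at 44 bp. With the passing peaks taken back in, a choice made after seeing the data, 14 of the 52 genes had a promoter summit (26.9%, against 18.6% of all genes).

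The other cap-binding genes had weak peaks or none. eIF4G2, an additional copy of the scaffold gene eIF4G1, had a thresholded peak of 66.0 in replicate 2 alone, 3 bp from a TSS. eIF4H1, a cofactor of the helicase, had ranked peaks of 47.0 in replicate 1 and 36.6 in replicate 2. eIF4B (36.9) and eIF4E4 (30.1) had ranked peaks in replicate 1 alone, and eIF4G1 (16.3) in replicate 2 alone. eIF4E1, the main cap-binding factor, had no peak in a list of either replicate, nor had eIF4E3, eIF4E5, eIF4E6, eIF4E7 and eIF4H2. eIF4H2 had a peak of 24.3 in the ranked list of the series, 449 bp from its TSS, with a global IDR of 0.633. Of the 11 additional copies of a factor gene in all roles, 0 carried a conservative summit. It was 12 of the other 41 genes, and 18.2% of all protein-coding genes. Most of these copies have 1 TSS, and 13.5% of all genes with 1 TSS had a conservative summit. With so few copies, no difference is read from the 0.

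**Figure D3:**
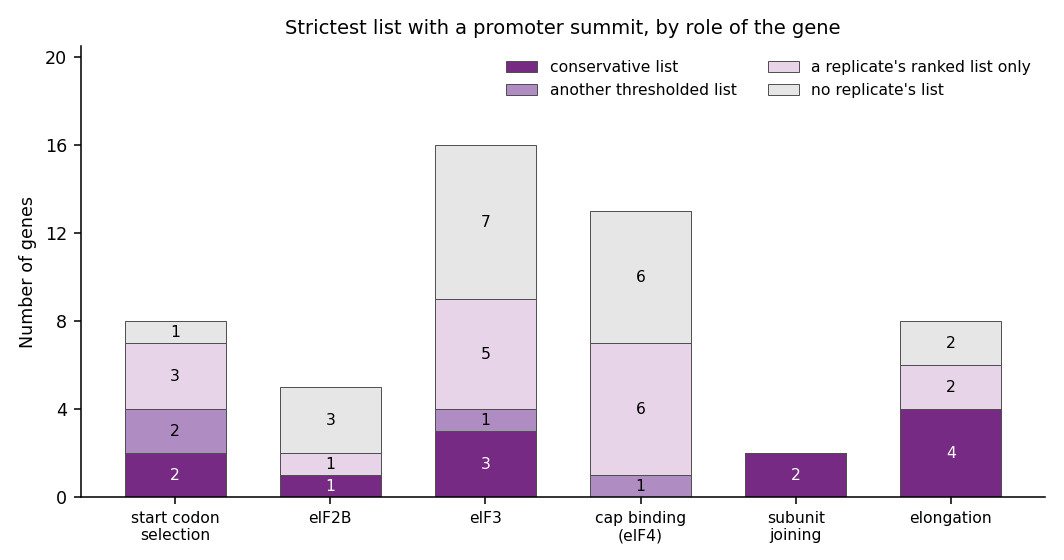
Number of eIF and eEF genes (vertical axis) by the strictest list that holds a summit within 500 bp of a TSS, from dark (conservative list) to light (no list of a replicate), for each role. Subunit joining has 2 of 2 genes and elongation 4 of 8 in the conservative list, and cap binding has 0 of 13. That list holds a summit at 18.2% of all protein-coding genes, and each role has few genes.

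Across all 52 genes, 19 (36.5%) had no summit in any list of a replicate, against 52.7% of all protein-coding genes. In the order of strictness, 4 genes (7.69%, against 7.77% of all genes) were in another thresholded list and 4 (7.69%, against 8.40%) in the ranked lists of both replicates. A further 5 (9.62%, against 3.36%) were in the ranked list of replicate 1 alone and 8 (15.4%, against 9.61%) in that of replicate 2 alone. The share of these genes was above that of all genes in the conservative list and among genes with a ranked peak in 1 replicate alone. It was close to that of all genes in another thresholded list and in the ranked lists of both replicates. Among genes with no summit in any list of a replicate it was below.

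Over all genes, the share with a conservative summit rose with the number of TSSs per gene. The share of eIF and eEF genes was above that of all genes only among genes with 2 TSSs. Among genes with 1 TSS, 4 of 32 eIF and eEF genes (12.5%) had a conservative summit, against 13.5% of all genes with 1 TSS. Among genes with 2 TSSs it was 7 of 17 (41.2%), against 26.3%, and with 3 or more it was 1 of 3 (33.3%), against 42.8%. The bound genes lay on several arms, with 5 of 13 on 2R (against 16.8% of all genes there), 2 of 5 on 2L (17.6%), 2 of 11 on 3L (20.8%), 2 of 15 on 3R (17.7%), 1 of 7 on X (18.8%) and 0 of 1 on chromosome 4 (7.5%).

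Some genes without a promoter summit had a conservative summit within a few kilobases of a TSS, and others had none for a long distance. The summit closest to eIF3d1, at 1311 bp, was strong (518.4), as was that at 3811 bp from eIF4EHP (332.2). eIF2beta had a weak one at 2318 bp (14.5), eIF3k one of 132.1 at 2377 bp, eIF2A one of 265.8 at 2899 bp and eIF2Bdelta one of 151.4 at 2961 bp. At the other end, the nearest summit to eIF5 lay 98391 bp away and that to eIF4B 4948158 bp away.

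The 12 genes held 16 conservative promoter summits, with 4 genes (33.3%, against 23.5% of all genes with a summit) holding more than 1. Of the 16, 14 (87.5%) lay upstream of the nearest TSS of an eIF or eEF gene. Measured to the nearest TSS of any protein-coding gene it was 13 (81.2%), against 82.7% of 2361 promoter summits of all genes. The median distance to the TSS was 84.5 bp against 150 bp, and 9 of the 16 (56.2%, against 30.2%) lay within 100 bp. For these distances the 16 were measured to TSSs of eIF and eEF genes alone, and the 2361 to those of all protein-coding genes. By the annotation, 9 summits lay between genes, 3 in 5' untranslated regions, 2 in introns, 1 in a coding exon and 1 in an exon of a noncoding gene. A TSS of another gene lay within 500 bp of 7 of them (43.8%, against 34.0% of promoter summits with TSSs of 2 or more genes).

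**Figure D4:**
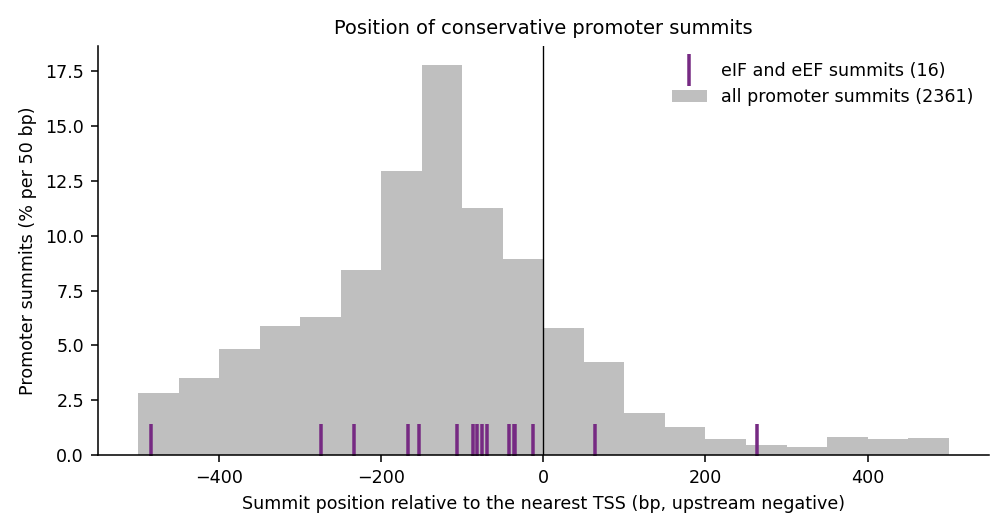
Position of conservative promoter summits relative to the nearest TSS (horizontal axis, bp, upstream negative): purple ticks are the 16 eIF and eEF summits, and gray bars are all 2361 promoter summits as percent per 50 bp (vertical axis). The ticks use TSSs of eIF and eEF genes alone, and the bars use TSSs of all protein-coding genes. Of the purple ticks, 9 lie within 100 bp of the TSS and 2, both of eIF3h, lie downstream.

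Signal and base composition at these summits were as follows. The median signal was 234.0, from 77.3 to 558.9, against a median of 200.8 at all promoter summits, and the median percentile among promoter summits was 58.2. That percentile was 54.2 in the thresholded list of replicate 2 alone and 46.2, below the middle, in that of replicate 1 alone. The 101 bases about the summit had a median of 36.65% G and C, against 30.7%. Of the 16 summits, 2 (12.5%) lay on a base soft-masked as repeat or low-complexity sequence, against 28.3%, and these were the summit of eIF3c and the weaker one of eEF2. Masked summits left out, 11 of the 52 genes (21.2%) kept a promoter summit, against 13.7% of all genes.

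Most of these summits lay in thresholded peaks of both replicates, 13 of 16 (81.2%) against 58.8% of promoter summits of all genes. For 10 of these 13 (76.9%) replicate 1 gave the higher signal, against 92.4% of 1388 summits of all genes, and the median ratio of replicate 1 over replicate 2 was 1.35 against 1.42. The 3 with the higher value in replicate 2 were at eEF1alpha1, eEF5 and eIF2Bbeta. Such ratios describe the lists, which may differ in scale, and the 2 summits of eIF3m share their replicate peaks. The replicate peaks that hold the eIF2Bbeta summit have their own summits 184 and 189 bp from it. For the weaker eIF3m summit these lie 193 and 232 bp away. Within the window of eIF2Bbeta, replicate 2 had no summit.

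**Figure D5:**
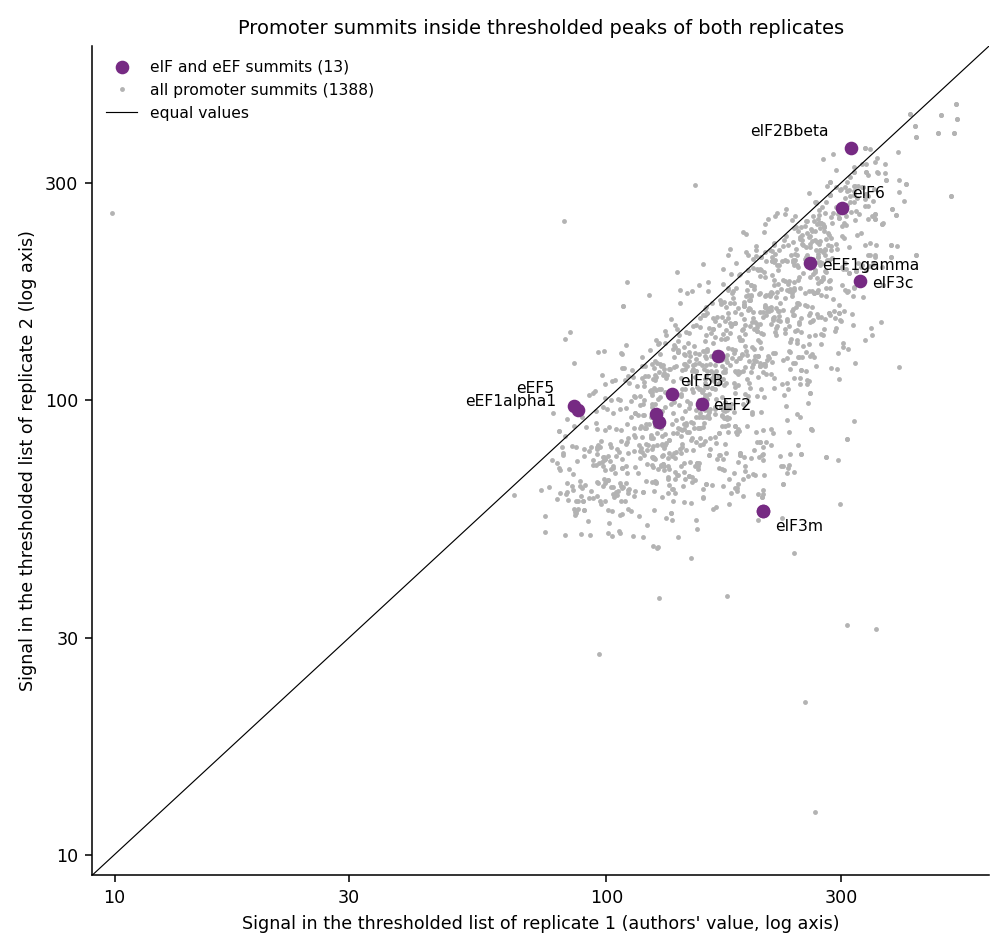
Signal in the thresholded list of replicate 1 (horizontal log axis) and replicate 2 (vertical log axis) for promoter summits inside thresholded peaks of both, with the 13 eIF and eEF summits in purple and all 1388 in gray; the line marks equal values. The points of eEF1alpha1, eEF5 and eIF2Bbeta lie above the line, and that of eIF3m, at 208.5 in replicate 1 and 56.9 in replicate 2, lies farthest below it among the purple points. The eIF2Bbeta values are those of replicate peaks whose own summits lie 184 and 189 bp from the conservative one.

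Words known from fly promoters were counted within 50 bp of the summit on either strand, as descriptions and not as binding sites. The DRE (TATCGATA), the word bound by the factor DREF, was at 2 of 16 eIF and eEF summits (12.5%), against 2.88% of all promoter summits. These were the summits of eEF1gamma and the farther one of eIF1, whose sequences are given above. The Motif 1 core (GGTCACAC) was at 1 summit, that of eEF1alpha1 (6.25%, against 1.52%). The TATA box word (TATAAA) was at 4 (25.0%, against 27.5%), the GAGA word (GAGAG) at 1, eIF3c (6.25%, against 8.98%), and the E-box (CACGTG) at 0 (against 0.805%).

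The promoters of all 52 genes were also searched, from 250 bases before to 50 after the TSS of the canonical transcript, whether or not a summit lay there. The DRE was in 14 of 52 (26.9%), against 8.95% of all protein-coding genes, with 4 of 12 among genes with a summit (eEF1gamma, eIF2Bbeta, eIF3c and eIF6) and 10 of 40 among those without. A TCT start, here CTTTT or CTTTC beginning within 5 bases of the TSS and known from fly genes for ribosomal proteins and translation factors, was in 6 (11.5%, against 5.13%), namely eEF2, eEF5 and eIF3m with a summit and eIF3f1, eIF3i and eIF4A without. The Motif 1 core was in 6 (11.5%, against 7.53%), of which 0 had a summit. The E-box was in 4 (7.69%, against 4.28%), the TATA box word in 24 (46.2%, against 45.3%) and the GAGA word in 7 (13.5%, against 30.2%).

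Of other genes of translation, from 5 lists of 41 genes, 15 had a conservative promoter summit (36.6%, against 18.2% of all genes). In the thresholded list of replicate 1, 12 had one (29.3%, against 17.3%), and in that of replicate 2 it was 13 (31.7%, against 18.4%). With only summits inside thresholded peaks of both replicates the count fell to 9 (22.0%, against 12.1%), and with only peaks at or above the median signal of the list it was also 9 (22.0%, against 12.1%). The lists were chosen with results of these data known, and the share of 36.6% is a description. Some of these genes, such as larp and Unr, have 3 or more TSSs, and 42.8% of all such genes had a conservative summit. Beside the count of each list below stands the 18.2% of all genes. For termination and ribosome recycling 4 of 7 genes had one. These were eRF3, the release factor GTPase (360.1, with 247.5 in replicate 1 and 111.9 in replicate 2), the ribosome rescue genes pelo (259.0, with 160.0 in replicate 1 and 95.6 in replicate 2) and HBS1 (196.7, with 125.2 in replicate 1 and 62.9 in replicate 2), and MCTS1 (113.7, in no thresholded peak of a replicate). Of the enzymes that modify translation factors 2 of 5 had one, Dph1 (339.6, with 195.8 in replicate 1 and 145.2 in replicate 2) and Dph2 (339.1, with 236.3 in replicate 1 and 116.8 in replicate 2), both of which act in making the diphthamide residue of eEF2. Dhps and nero, which make the hypusine of eEF5, had none. Another gene also had a TSS within 500 bp of a summit at eRF3 (SC35), HBS1 (CG12025) and MCTS1 (rux).

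Among mRNA-binding proteins and regulators of the cap complex 5 of 11 had a summit. For comparison with this list and those that follow, 18.2% of all genes had one. larp had 304.7, Unr, which encodes an RNA-binding protein, had 247.5, and Thor, the inhibitor of eIF4E, had 239.8, each inside thresholded peaks of both replicates. pAbp, the poly(A)-binding protein, had 130.8 in no thresholded peak of a replicate, and NAT1, an eIF4G-like protein, had 130.0, inside a peak of replicate 2 alone. In TOR and stress signalling 3 of 10 had one, Rheb (199.4, both replicates), PPP1R15, which directs a phosphatase to eIF2alpha (152.9, replicate 1 alone), and S6k (110.8, neither replicate). Another gene also had a TSS within 500 bp of a summit at Rheb (CG2931) and S6k (kri). The eIF2alpha kinase genes PEK and Gcn2 had no conservative promoter summit. Of the mitochondrial translation factors 1 of 8 had one, mIF2 (145.8, replicate 1 alone).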

How the data were processed

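Peaks were analysed from 7 deposited narrowPeak lists on assembly dm6. The deposited readme of each sample traces the series' lists to the alignments of both replicates, and each replicate's lists to its own alignments, always with a further input. The authors thus called peaks on single replicates as well as on the replicates joined. Which aligner and peak caller were used is not given in the sources used here. Signal is the authors' deposited value for each peak, on a scale not stated. The score used is the authors' deposited −log10 global IDR of the ranked lists, and a limit of 0.01 was applied to it where the text says so. Another 16 columns of the series' ranked lists, each for 1 input that the labels do not link to a replicate, were left out, as was the other ranked list of the series. Control libraries were not analysed here.

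The summit is the deposited offset within the peak, and coordinates are 1-based. Genes and TSSs (19630) came from Ensembl release 115 (BDGP 6.54) and sequence from RefSeq, same assembly. Additional copies are 11 genes listed by hand, whose symbol carries a copy number above that of another gene for the same factor or subunit (such as eIF3d2 beside eIF3d1). Every eIF and eEF gene was named, with its signal where it had a conservative promoter summit. Of the other translation genes, each with such a summit was named with its signal. The assignment of summits to genes was tested on simulated data. All genes, lists and words were chosen with earlier results of these data known, and no test was made: each count stands beside the same count over all genes. With 1 group there is no comparison between conditions. Of 43 names on the lists of other translation genes, 41 genes were matched, 1 name was unmatched and another was an older name of a gene already listed. Peaks and genes are not independent replicates. Python 3.11.15, numpy 2.4.6, pandas 2.3.3 and matplotlib 3.10.9 were used. The alternatives tried were other windows, TSSs, lists, thresholds, overlaps and replicates.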

Additional observations from a re-analysis of the deposited data

Results flagged for a closer look

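Peaks at 2 of the eIF and eEF genes appeared in the ranked lists with a global IDR of at most 0.01 and yet stand in no thresholded list, so they fall outside the counts above. At eIF4EHP these had signals of 717.8 in the ranked list of the series, 412.4 and 54.7 in that of replicate 1 and 300.4 in that of replicate 2. At eIF4A they had 135.7 in the ranked list of the series, 99.6 in that of replicate 1 and 74.2 in that of replicate 2. In the lists of replicate 1, 100 of 5064 passing peaks were absent after thresholding (1.97%), and in those of replicate 2 it was 113 of 5597 (2.02%). The cause of the absences was not tested.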

How the results depend on the processing

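The count of eIF and eEF genes with a promoter summit was 12 (23.1%, against 18.2% of all genes). It lay between 10 and 14 under all alternatives run. With only peaks at or above the list median it was 10 (19.2%, against 12.1%), and with 1 TSS per gene 11 (21.2%, against 15.7%). With a peak overlapping the window by 1 bp it was 12 (23.1%, against 19.4%). It was 14 (26.9%, against 18.4%) without replicate 1 and 12 (23.1%, against 17.3%) without replicate 2. The eIF3 count was 3 (18.8%, against 18.2% of all genes). It ranged from 2 with masked summits left out (12.5%, against 13.7%) to 4 without replicate 1 (25.0%, against 18.4%). With a window of 1000 bp it was 3 (18.8%, against 21.3%), so its share fell on either side of that of all genes. Upstream summits were 14 of 16 (87.5%). Their share ranged from 10 of 15 (66.7%) without replicate 1 to 12 of 13 (92.3%) with a window of 250 bp. With a window of 1000 bp it was 15 of 17 (88.2%). The count of other translation genes, 15, fell to 9 (22.0%, against 12.1% of all genes) with only peaks at or above the list median, and to 9 (22.0%, against 12.1%) inside thresholded peaks of both replicates. The median percentile of the eIF and eEF summits among promoter summits was 58.2 in the conservative list, between 46.2 and 54.2 in the lists of single replicates, and 64.1 with only the strongest summit of each gene. With 1 group, no paired analysis was possible because there are no groups to pair. Read depth is unknown, so a missing peak does not show that the protein was absent.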
